A study of Drosophila eugracilis and Drosophila pseudoobscura and Drosophila bifasciata with 4 samples.

Results

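In the ovary of Drosophila eugracilis, 242 places in the genome gave QuantSeq reads but almost no reads from the matching polyA library. They were found by merging overlapping QuantSeq alignments of the same strand into islands and keeping islands with at least 20 reads. An island was retained as a member when 2 or fewer polyA alignments of its strand had an aligned base between 1000 nt upstream of the island and its 3′ edge. This held for 242 of 10927 islands (2.21%), and the 10685 islands with more polyA lines are called the other islands. Both the read minimum and the polyA limit chose the members, so QuantSeq level and polyA support are given below as a description.

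Both libraries came from ovaries of wild-type D. eugracilis females kept on standard food and labelled as strain SHL12, with 1 library of each kind. The methods of the study name another stock identifier, and the difference was not resolved. The age label gives 2 to 7 days and the protocol 3 to 7 days. For the QuantSeq library, total RNA was reverse transcribed from an oligo-dT primer so that reads gather at 3′ ends. For the polyA library, RNA was first selected on oligo-dT beads and then sequenced as stranded read pairs along whole transcripts, and both mates count as lines here. The other 2 libraries of the series, from D. pseudoobscura and D. bifasciata ovaries, do not enter. Without replicates there is no test and no p-value in what follows. Intervals are exact 95% intervals (Clopper-Pearson for shares, Poisson for levels, order statistics for medians) and cover counting error only, since PCR copies were not marked by molecular identifiers. The ovary label was not checked against marker genes because the gene table used here gives only LOC symbols.

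Most messenger RNAs are cleaved at a site downstream of the coding sequence and receive a tail of adenosines, the feature that both oligo-dT beads and oligo-dT primers bind. An oligo-dT primer can also start on a run of adenosines inside an RNA, which is called internal priming and leaves a peak of reads that is no transcript end. RNAs such as the small nuclear RNAs of the spliceosome normally carry no poly-A tail and are depleted by bead selection, whereas total RNA still holds them, together with introns of unfinished transcripts. In this series the 3′ reads were used beside the polyA reads to ask whether yb is expressed, a gene of the somatic piRNA pathway that is a pseudogene in D. eugracilis. Base composition at the members was not analysed here because it needs the genome sequence, so internal priming was not tested.

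The QuantSeq library held 6256158 aligned reads and the polyA library 13099511 lines. A single QuantSeq read with a long alignment gap can bridge distant loci, so islands were merged from reads without a gap, and gapped reads are described separately. Merging all reads by their whole span, gaps included, gave 32 members instead. At these depths 20 QuantSeq reads correspond to 3.20 counts per 1000000 aligned lines (CPM) and 2 polyA lines to 0.153 CPM.

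The members were many but weak. They held 15919 reads, 0.254% of the QuantSeq library (0.251 to 0.258). The median member had 33 reads (30 to 36), against 119 reads (114 to 122) in the other islands. By level, 182 members had 20 to 49 reads, 37 had 50 to 99, 20 had from 100 to under 500 and 3 had 500 or more. Members were 5.97% of the islands with 20 to 49 reads, 1.88% of those with 50 to 99, 0.459% of those with 100 to under 500 and 0.194% of those with 500 or more. The 10 strongest members held 39.6% of all member reads and the first alone 15.5%. The plus strand held 142 members and the minus strand 100, a split with no matching count for other islands.

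**Figure D1:**
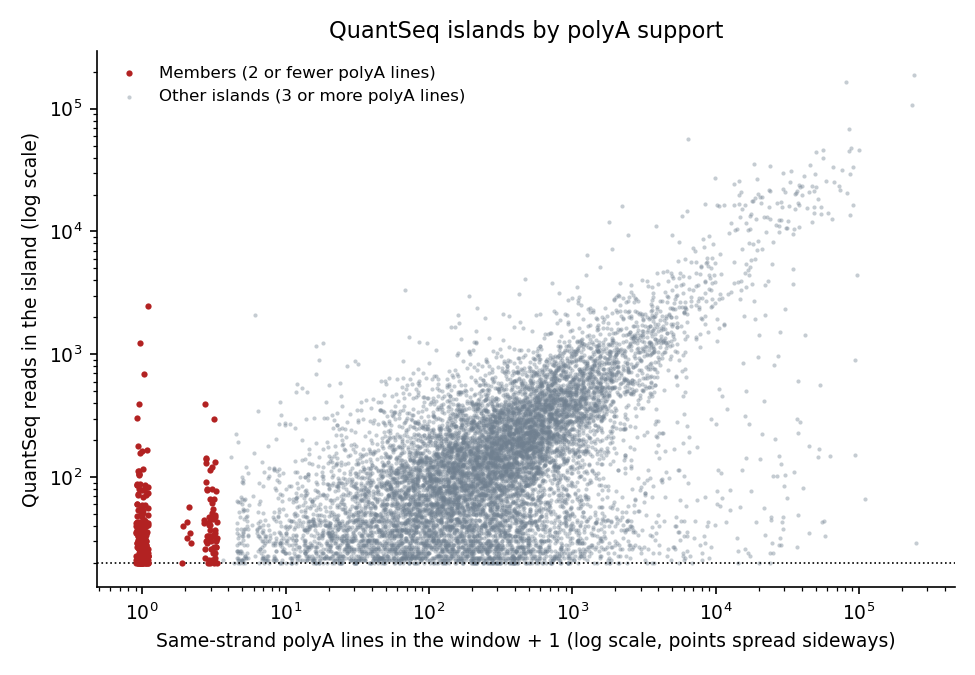
QuantSeq reads of each of the 10927 islands (vertical, log scale) against the same-strand polyA lines in its window plus 1 (horizontal, log scale). The 242 members (red) stand at the left with 0 to 2 polyA lines and mostly under 50 reads, and the other islands (grey) show more polyA lines where they hold more QuantSeq reads. The dotted line marks the minimum of 20 reads.

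The polyA limit fell in a sparse zone. In the polyA library 171 members had 0 lines in the window, 7 had 1 and 64 had 2, and in all 64 of these the 2 lines were the mates of 1 read pair. Members with 2 lines had a median of 34.5 reads and a width of 144 nt, and members with 0 lines had 32.0 reads and 133 nt. The 79 islands just outside the limit, with 3 or 4 polyA lines, had a median of 34.0 reads and a width of 155 nt. At the read limit, 24 members had exactly 20 reads. These medians were close on either side of the polyA limit.

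The strongest member lay at NW_024572906.1:252220-252294 (plus strand, assembly ASM1815383v1) and held 2473 QuantSeq reads, or 395 CPM (380 to 411), against 0 polyA lines. Set against the limit of 3 lines that a count of 0 allows over its window (0.229 CPM), its level was 1726-fold higher in QuantSeq. That limit takes lines as independent, whereas mates of a read pair come together, so the ratio is not a lower bound. The 2473 reads were 229 distinct alignments. It is 75 nt wide, 88.2% of its reads ended within 5 nt of the most frequent 3′ end, and the nearest polyA line upstream was 29556 nt away. No aligned base of either library lay further along the contig, whose last covered position, 252294, is the member's own edge. The contig holds 6 islands and could not be linked to annotated genes.

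The second member, NW_024572605.1:3022233-3022362 (plus strand), had 1234 QuantSeq reads, or 197 CPM (186 to 209), and 0 polyA lines. The ratio of its level to the same limit was 861, with the same reservations. It overlapped no gene, with 21 polyA lines in the 1000 nt downstream. The third, NW_024572672.1:497637-497736 (plus strand), had 698 reads, or 112 CPM (103 to 120), and 0 polyA lines. It lay on the opposite strand of LOC108108329, a protein-coding gene whose polyA lines all came from the minus strand. The polyA library thus had no line in the window of any of the 3, which lay at the last covered position of a contig, outside genes and opposite a gene.

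Among the next 7 members, NW_024573039.1:658231-658392 (plus) had 394 QuantSeq reads and 0 polyA lines, outside any gene. NW_024573263.1:556442-556551 (minus) had 392 reads and 2 polyA lines, also outside genes. NW_024573036.1:2389264-2389328 (plus) had 301 reads and 0 polyA lines, and all of its reads ended within 5 nt of the same place. These 3 lay on contigs that were linked to genes, and yet overlapped none.

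NW_024573145.1:25768-25836 (plus) had 296 QuantSeq reads, 2 polyA lines on its strand and 58 polyA lines on the opposite strand. NW_024573052.1:515729-515882 (plus) had 180 reads and 0 polyA lines and overlapped the first bases of the protein-coding gene LOC108109721, which starts at position 515872 on the same strand. NW_024572605.1:3300593-3300668 (minus) had 167 reads and 0 polyA lines and lay within LOC108109088, at the 5′ end of this minus-strand gene. NW_024573287.1:853169-853230 (plus) had 164 reads and 0 polyA lines, with the nearest upstream polyA line 93427 nt away. Of the 10 strongest members, 8 had no polyA line at all in the window.

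Members were narrow. Their median width was 136 nt (127 to 143), against 265 nt (263 to 268) in the other islands. Width grows with the number of reads, so the contrast was also taken within read classes. With 20 to 49 reads the medians were 136 nt in members and 186 nt in other islands, with 50 to 99 reads 138 and 239 nt, with 100 to under 500 reads 127 and 308 nt, and with 500 or more reads 100 and 399 nt (3 members in the last class). Other islands were wider in each higher read class and members were not. The widest member, NW_024572115.1:558122-558456 (minus), was 335 nt wide with 49 reads, in LOC108103560. The narrowest, NW_024573263.1:571469-571483 (plus), was 15 nt wide, and its 20 reads were copies of 1 alignment.

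The reads of members were also shorter and ended more often at the same base. The median aligned length was 69.0 nt (65.0 to 73.0) in members and 83.5 nt (83.0 to 84.0) in other islands. With 20 to 49 reads it was 70.5 nt and 79.0 nt. Within 5 nt of the most frequent 3′ end lay 73.9% of a median member's reads (70.0 to 76.8) and 57.1% of those of a median other island (56.5 to 57.7). In 57 members, 23.6% (18.4 to 29.4), at least 90% of reads ended there, against 6.68% of other islands (6.22 to 7.17) and 7.06% of all islands. With 20 to 49 reads this held for 22.5% of members (16.7 to 29.3) and 11.9% of other islands (10.7 to 13.1). With 50 to 99 reads it was 24.3% and 8.45%, with 100 to under 500 reads 35.0% and 3.73%, and with 500 or more reads 0% (3 members) and 3.10%. The share of reads that were distinct alignments was 48.8% in the median member (45.9 to 51.9) and 47.8% in the median other island (47.6 to 48.1). Within read classes it was lower in members, with 51.9% against 56.4% at 20 to 49 reads, 46.3% against 53.6% at 50 to 99 reads, 23.8% against 45.1% at 100 to under 500 reads and 12.6% against 27.5% at 500 or more reads.

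A small subset consisted of very short alignments. In 10 members, 4.13% (2.00 to 7.47), the median aligned length was under 30 nt, against 30 other islands, 0.281% (0.190 to 0.401), and 0.366% of all islands. Between 1 and 5 distinct alignments made up 23 members, 2 of them a single alignment seen repeatedly. The lowest number in other islands was also 1, and how many of them had 5 or fewer was not counted. When only reads of at least 30 nt were merged, an alternative chosen after seeing the data, 227 members were found.

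**Figure D2:**
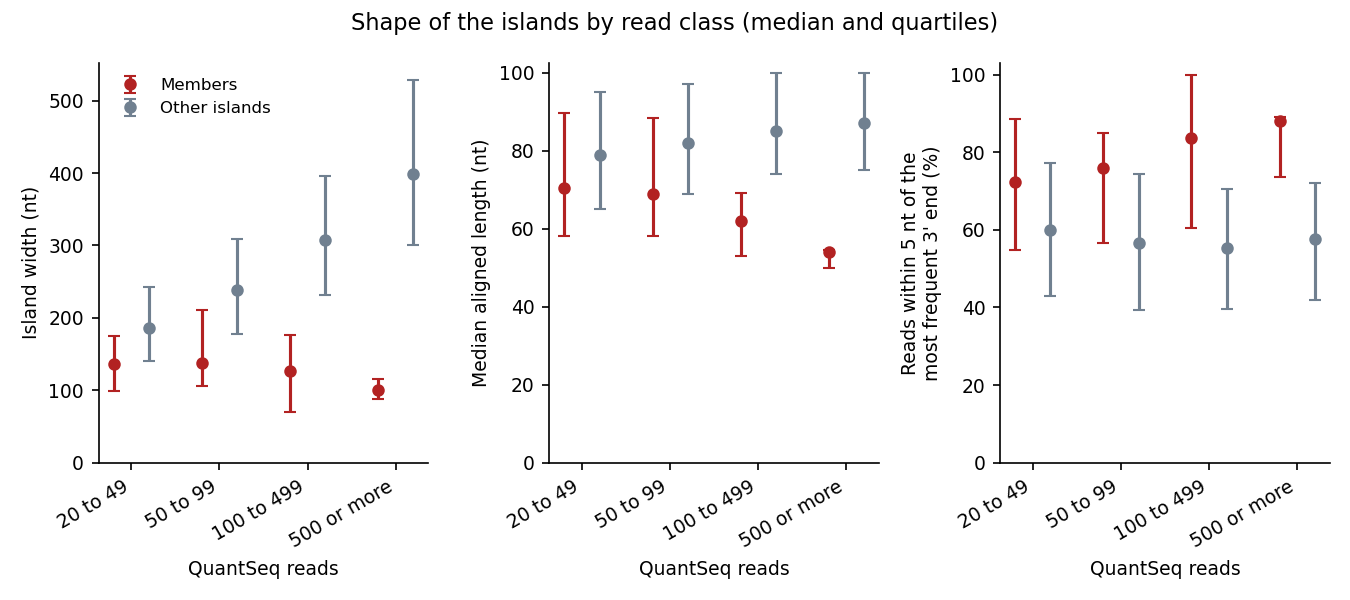
Island width, median aligned length and the share of reads within 5 nt of the most frequent 3′ end (vertical) for islands of 4 read classes (horizontal), as median (point) and quartiles (bars), members in red and other islands in grey. The width of other islands is larger in each higher read class, with medians of 186 to 399 nt, while member medians stay between 100 and 138 nt.

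An intron seen in polyA reads was defined as an alignment gap of 40 to 20000 nt shared by at least 3 polyA lines. On their own strand, 23 members lay wholly inside such an intron, 9.50% (6.12 to 13.9), against 6.20% of other islands (5.75 to 6.67) and 6.27% of all islands. With 20 to 49 reads, the shares were 9.89% of members (5.97 to 15.2) and 9.73% of other islands (8.67 to 10.9). At like level, then, intronic position did not set members apart beyond counting error. Since a polyA line that jumps over the window has no base in it, such a member could lie inside a transcribed gene and still count as unsupported. When polyA lines were counted over their whole span, gaps of any length included, 38 islands met the rule, which then bars members from same-strand introns by construction.

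The 23 members lay in 21 introns of 1327 to 18016 nt (median 8642 nt), against a median of 4390 nt for the introns that held other islands. Between 3 and 81 polyA lines spliced over these introns. Measured along the intron in the direction of transcription, the 3′ ends stood at 20.1% to 96.5% of its length (median 57.1%), and 137 to 14387 nt remained to the 3′ splice site. Short introns and the stretch just after an exon are barred by the rule, since lines of the upstream exon would count as support, so intron length and the distance from the 5′ splice site are given as a description.

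Of these, NW_024572849.1:284810-284910 (plus) had the most reads, 117, with 0 polyA lines in its window and 6 polyA lines spliced over the intron from 280771 to 285476. NW_024573387.1:438257-438408 (minus) had 88 reads in an intron of LOC108114836 from 437710 to 440207 that 18 polyA lines spliced out. NW_024573030.1:996907-997117 (plus) had 83 reads in an intron of LOC108103530 from 995491 to 997158, spliced out by 7 polyA lines, and ended 137 nt before its 3′ splice site. Both named genes are protein-coding and were transcribed in the direction of the member.

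Inside introns of the opposite strand lay 12 members, 4.96% (2.59 to 8.50), against 2.92% of other islands (2.61 to 3.26) and 2.97% of all islands. Here the spliced polyA lines and the QuantSeq reads ran in opposite directions. The leader was the third strongest member, in the intron of LOC108108329 from 497157 to 498370, seen in 10 polyA lines. NW_024573645.1:1737594-1737719 (minus) had 87 reads and lay opposite an intron from 1726208 to 1740545 with 27 polyA lines, where LOC108111604 and the minus-strand gene LOC108111603 overlap. NW_024572137.1:6995-7142 (plus) had 80 reads opposite an intron from 6329 to 13266 with 4 polyA lines, on a contig with no other island. The narrowest member, described above, lay opposite an intron of LOC108116883 with 15 polyA lines.

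PolyA coverage of the opposite strand was rare at members of low level. At least 3 opposite-strand polyA lines overlapped 14 members, 5.79% (3.20 to 9.52), against 24.1% of other islands (23.3 to 24.9) and 23.7% of all islands. With 20 to 49 reads the shares were 4.40% of members (1.92 to 8.48) and 14.2% of other islands (13.0 to 15.6). With 50 to 99 reads they were 2.7% (0.0684 to 14.2) and 15.6%, and with 100 to under 500 reads 25% of members (5 of 20, 8.66 to 49.1) and 23.9% of other islands, so the contrast was seen in the lower read classes and not in that one. Because members are narrow, the count was repeated over 100 nt on each side of the most frequent 3′ end, which gave 17 members, 7.02% (4.15 to 11), against 21.9% of other islands (21.1 to 22.7) and 21.5% of all islands. No opposite-strand line at all was found at 222 members, and the median number of such lines was 0 in other islands too.

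Other islands had a median of 282 same-strand polyA lines in the window, and opposite-strand lines may include reads assigned to the wrong strand in such places. When the opposite strand also had to reach 10% of the lines of the island's own strand, the shares were 5.79% of members (3.20 to 9.52) and 9.52% of other islands (8.97 to 10.1), with 9.44% of all islands. With 100 to under 500 reads the shares were 25% of members and 12.5% of other islands (11.5 to 13.5), with the members' interval again from 8.66 to 49.1. The pooled contrast was therefore smaller under this condition, which every member with 3 opposite lines meets, having at most 2 on its own strand. How far wrong-strand lines set the first contrast was not tested.

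Of the 14 members, 10 had between 3 and 12 opposite-strand lines and 3 had at least 20. At NW_024572906.1:222613-222698 (plus, 31 QuantSeq reads) 848 polyA lines ran on the opposite strand and 2 on the same strand. At NW_024572730.1:494-562 (plus, 140 reads) there were 482 opposite lines and 2 on the same strand. At NW_024573145.1:25768-25836, the member with 296 reads, there were 58 opposite lines and 2 on the same strand. These 3 lay on contigs that could not be linked to genes, and the first shares its contig with the strongest member.

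In the QuantSeq library itself the members were almost all on 1 strand. An island on the opposite strand overlapped 1 member, 0.413% (0.0105 to 2.3), against 17% of other islands (16.3 to 17.7) and 16.6% of all islands. Any opposite-strand QuantSeq read was found at 10 members, 4.13% (2.00 to 7.47), against 26.8% of other islands (26.0 to 27.7) and 26.3% of all islands, and the most at a member was 18 reads. With 20 to 49 reads the contrasts were smaller. An opposite island overlapped 0.549% of members (0.0139 to 3.02) and 8.13% of other islands (7.15 to 9.19). Any opposite read was found at 3.30% (1.22 to 7.04) and 15.1% (13.8 to 16.5).

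Although the rule emptied the window itself, same-strand polyA reads were often found further out. In the 1000 nt downstream of the 3′ edge, 74 members had at least 3 polyA lines, 30.6% (24.8 to 36.8), against 58.3% of other islands (57.4 to 59.2) and 57.7% of all islands. With 20 to 49 reads the shares were 31.3% of members (24.7 to 38.6) and 67.0% of other islands (65.2 to 68.7). Between 1000 and 10000 nt upstream, at least 3 polyA lines were found for 142 members, 58.7% (52.2 to 64.9), against 93.4% of other islands (92.9 to 93.9) and 92.7% of all islands. The nearest upstream polyA line was a median of 3782 nt from a member (3411 to 5108) and 14.0 nt from an other island (14 to 15), a distance that the rule itself pushes beyond most of the window. Because the rule gives other islands polyA lines in the adjoining window, the contrasts on both sides can follow in part from it.

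The profile of polyA lines around the most frequent 3′ end is emptied before members by the rule, so the sides can be set against each other only beyond the window. In the bin of 1800 to 2000 nt upstream 14.5% of members and 60.5% of other islands had a polyA line, and in the bin of 1800 to 2000 nt downstream 9.92% of members and 31.6% of other islands. At this distance other islands had polyA lines more often before than after the end. In members the intervals of the sides overlapped (10.3 to 19.6 and 6.46 to 14.4). Their order also changed between bins, with 12.9% before and 14.9% after at 1400 to 1600 nt. Members had polyA lines less often than other islands on either side, which can follow in part from the rule. Nearer to the end on the downstream side, in the bin of 200 to 400 nt, 24.8% of members and 46.3% of other islands had a polyA line.

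**Figure D3:**
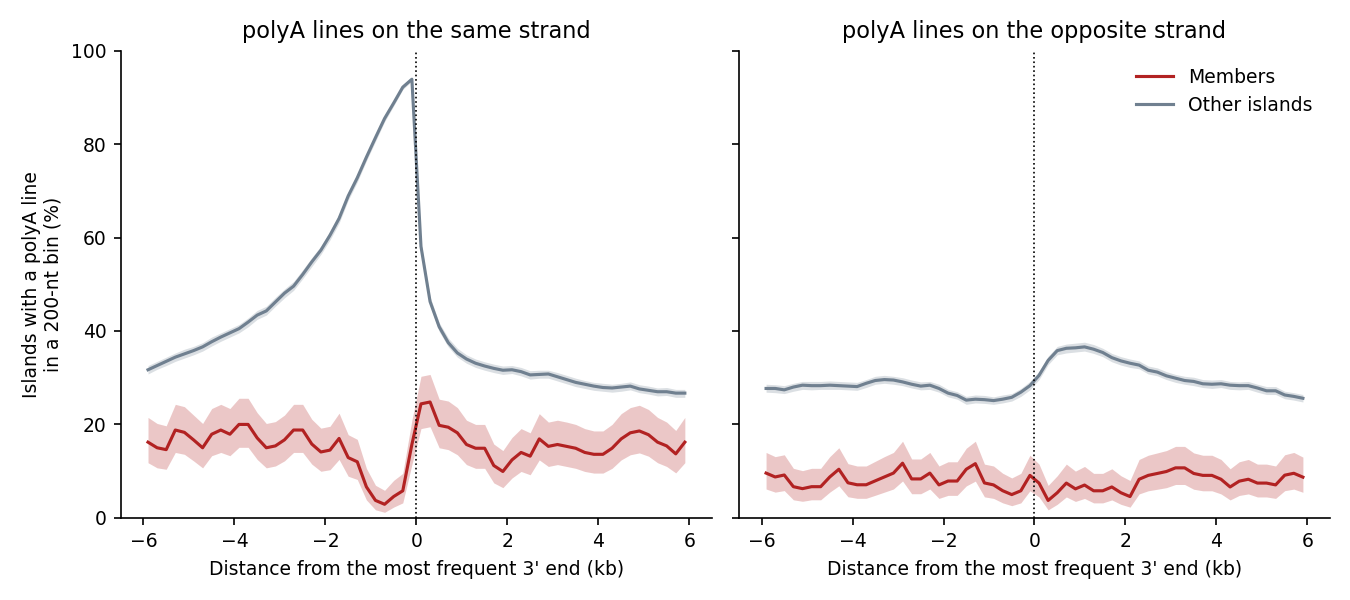
Share of islands with at least 1 polyA line in each 200-nt bin (vertical) against the distance from the most frequent 3′ end in the direction of the island (horizontal, kb), for polyA lines of the same strand (left) and the opposite strand (right), with 95% intervals as bands. On the same strand other islands reach 93.9% just before the end, while members (red) are low there by the rule and stand at 24.8% from 200 to 400 nt after it, against 46.3% of other islands.

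A further group of members had few polyA lines nearby. Fewer than 3 lines over the island on the opposite strand, fewer than 3 on the same strand in the 1000 nt downstream and fewer than 3 from 1000 to 10000 nt upstream were found for 66 members, 27.3% (21.8 to 33.3), against 1.54% of other islands (1.32 to 1.80) and 2.11% of all islands. By read class this held for 25.8% of members (19.6 to 32.8) and 1.85% of other islands at 20 to 49 reads, for 43.2% (27.1 to 60.5) and 1.40% at 50 to 99 reads, and for 10% (2 of 20 members, 1.23 to 31.7) and 1.45% at 100 to under 500 reads. Other islands have polyA lines in the adjoining window by the rule, so this contrast follows in part from it. The count of members is given as a description.

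**Figure D4:**
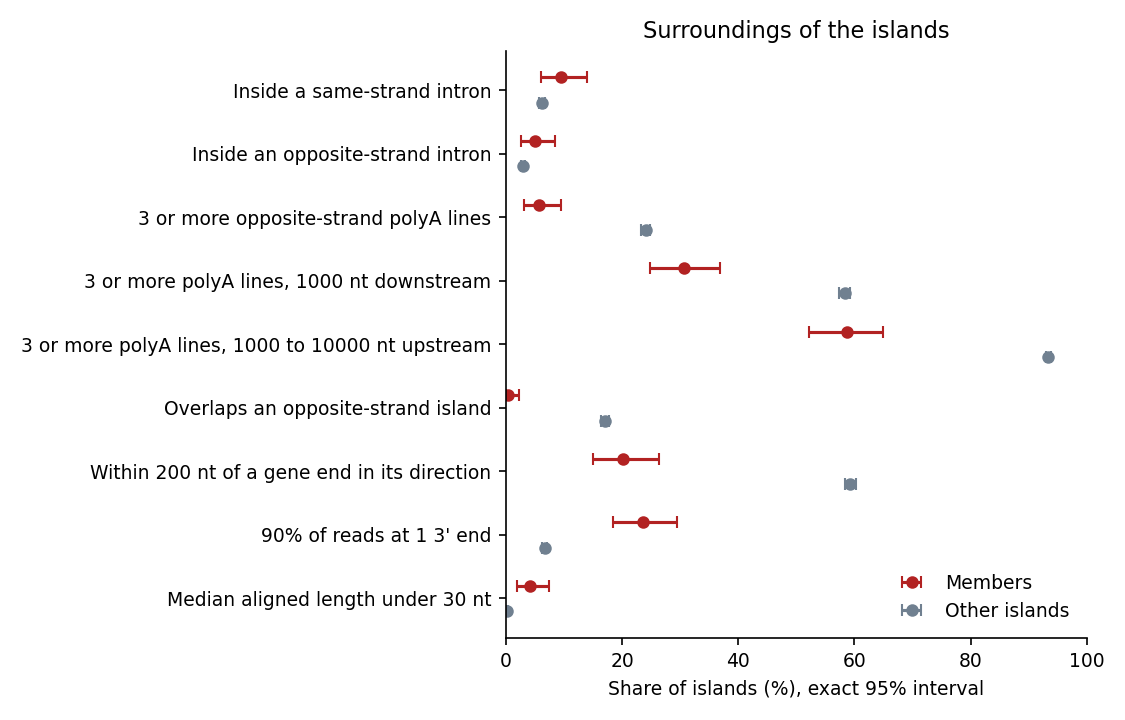
Share of members (red) and of other islands (grey) with each property (vertical list), in percent with exact 95% intervals (horizontal). Members are less often near polyA reads on either strand, with 5.79% against 24.1% for opposite-strand lines and 30.6% against 58.3% for the 1000 nt downstream, and more often have 90% of their reads at 1 end, with 23.6% against 6.68%. Shares are pooled over read classes, and with 20 to 49 reads the last contrast is 22.5% against 11.9%. Contrasts in same-strand polyA lines can follow in part from the rule.

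Gene spans could be laid on the contigs for 208 members and 9973 other islands, by matching runs of annotated genes to polyA splice junctions. A gene was given a strand when at least 10 polyA lines fell in it and at least 90% were of that strand. By this measure 91 members lay in a gene of their own strand, 43.8% (36.9 to 50.8), against 75.8% of other islands (75 to 76.7) and 75.2% of all islands. Genes of both strands overlapped 0 members (interval 0 to 1.76%), against 12.9% of other islands (12.3 to 13.6) and 12.6% of all islands. Opposite-strand genes alone held 10 members, 4.81% (2.33 to 8.66), against 2.27% of other islands (1.98 to 2.58) and 2.32% of all islands. No gene overlapped 46 members, 22.1% (16.7 to 28.4), against 5.53% of other islands (5.09 to 6) and 5.87% of all islands. Genes without a called strand held 61 members, 29.3% (23.2 to 36.0), against 3.46% of other islands (3.11 to 3.84) and 3.99% of all islands.

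Gene strands were called from the same polyA library that the rule used, so the shares by gene strand follow in part from the rule. This is plainest in the last class, since a gene without polyA lines gets no strand and gives no support. Of its 61 members, 39 were in genes with up to 9 polyA lines and 29 of these in genes with 0. A gene boundary that would be a 3′ end in the direction of the island lay within 200 nt of 42 members, 20.2% (15 to 26.3), against 59.3% of other islands (58.4 to 60.3) and 58.5% of all islands, and 25 of the 42 were in genes with up to 9 polyA lines. The opposite boundary lay within 200 nt of 28 members, 13.5% (9.14 to 18.9), against 34.0% of other islands (33.1 to 35) and 33.6% of all islands. The strand of the gene was not used for either boundary, and the gene could be a neighbour, so a counted boundary can also be a gene start. Whether these members ended at annotated 3′ ends was not tested.

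Host genes of members were long. The longest gene at a member had a median span of 28328 nt (18719 to 33461), against 3923 nt (3809 to 4043) at other islands. Genes of over 50000 nt held 50 of the 162 members that lay in genes, 30.9%, against 3.84% of other islands in genes and 4.30% of all islands in genes. In a short gene with polyA lines, those lines would often fall in the window and count as support. The rule itself therefore favours long host genes, and gene span is given as a description. Whether other gene properties move with span was not tested.

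The gene with most members was LOC108102888, a protein-coding gene at NW_024572029.1:593579-717222, with 5 members that held 146 reads, all on the minus strand, where the polyA library placed 122 of its lines against 16 on the plus strand. LOC108102436 (NW_024573052.1:1615997-1710525) held 4 members with 116 reads, all on the plus strand, beside 86 plus-strand and 22 minus-strand polyA lines. LOC108109721 (NW_024573052.1:515872-550857) held 3 with 247 reads, and LOC108110026 (NW_024572708.1:257362-318749) held 3 with 95 reads, all on the plus strand of these plus-strand genes. The long non-coding RNA gene LOC108103577 (NW_024572115.1:479207-501627) held 2 with 99 reads, a number of members that 14 further genes shared. In these 5 genes the members lay on the strand that carried most polyA lines, whereas in LOC108108329, with 2 members, the third strongest member lay opposite all of its 78 polyA lines.

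By gene type, protein-coding genes overlapped members 168 times, long non-coding RNA genes 6 times and small nuclear RNA genes 3 times (a member in 2 genes counts in both). Other islands overlapped them 11522, 65 and 20 times in the same order of types. These counts come from 208 members and 9973 other islands on contigs linked to genes, so they are not shares. The 3 at small nuclear RNA genes were named after their values were seen. At LOC121529975 (NW_024573036.1:2253660-2253824) a minus-strand member had 30 reads, at LOC121529974 (NW_024573036.1:2252687-2252851) a plus-strand member had 21 reads, and at LOC121529805 (NW_024572751.1:984820-984941) a minus-strand member had 20 reads. None had a polyA line in its window, and each of the 3 genes had 0 polyA lines. Per island, overlaps with this gene type were more frequent in members than in other islands. This rests on 3 overlaps in members and was not tested.

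Gapped QuantSeq reads were counted separately, as reads with an aligned block in an island. They were found at 63 members, 26.0% (20.6 to 32.0), against 45.9% of other islands (44.9 to 46.8) and 45.4% of all islands. Islands with more reads have more chances to hold a gapped one, and at like level the shares were close, with 19.8% of members (14.3 to 26.3) and 20.9% of other islands (19.5 to 22.5) at 20 to 49 reads, 35.1% and 31.6% at 50 to 99 reads, and 55% and 54.2% at 100 to under 500 reads. The 798 gapped reads of members carried 802 gaps, of which 577 (71.9%) were longer than 20000 nt, against 10.8% of the 247420 gaps in the library. None of these reads had a gap that matched an intron of at least 3 polyA lines, whereas 84.7% of the gaps in the library did. PolyA lines that share a gap with such a read have a block at the same splice site and count as support. The rule therefore largely fixes this absence in advance. As those introns are at most 20000 nt long, the contrast in gap length also follows in part from the rule. Neither is read as a trait of members.

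At NW_024572605.1:3300593-3300668, the ninth member, all 210 gapped reads shared a gap of 570562 nt, with a median of 71.0 nt in the member and 13.0 nt on the far side. At NW_024573036.1:2389264-2389328, the sixth member, 147 gapped reads had their downstream block in the member. In 119 of the 147 the upstream block ended within 20 nt of an annotated gene boundary, with the strand of the gene not used. In 91 of the 147 the upstream block lay in an island that polyA reads supported, and the overlap of these counts was not taken. These 147 reads had a median of 27.0 nt in the member and 45.0 nt in the upstream block. At the member of LOC121529974, 63 gapped reads left from the small nuclear RNA gene with 42.0 nt there and 20 nt beyond the gap.

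Members were spread over 64 of the 174 contigs with islands, and 29 contigs held 1 each. The 5 contigs with most members held 80 of the 242 (33.1%) and 29.0% of all islands. These were NW_024573812.1 with 22 members of 1094 islands (2.01%, 1.26 to 3.03), NW_024573038.1 with 17 of 999 (1.70%, 0.994 to 2.71), NW_024573224.1 with 15 of 558 (2.69%, 1.51 to 4.40), NW_024573052.1 with 14 of 388 (3.61%, 1.99 to 5.98) and NW_024572029.1 with 12 of 126 (9.52%, 5.02 to 16). In the first 4 the interval includes the share over all islands, 2.21%, and in NW_024572029.1 it lies above. Of the 43 contigs with a member and at least 10 islands, the interval lay above 2.21% in 3, the others being NW_024573030.1 (11 of 237, 2.34 to 8.15) and NW_024572115.1, and below it in 0. Contigs without a member were left out of the 43, so low shares were less likely to be seen. The intervals take members as independent, although members can share a gene, and make no allowance for looking at 43 contigs.

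The leading member of NW_024573812.1, at 3800433-3800646 (minus), had 80 reads in LOC108112171. That of NW_024573038.1, at 4758325-4758549 (minus), had 104 reads where the long non-coding RNA gene LOC108114510 overlaps the protein-coding LOC108114508. That of NW_024573224.1, at 3232885-3232996 (minus), had 92 reads in LOC108113724. The leader of NW_024573052.1 was the eighth member described above. On NW_024572029.1 the leader, at 429817-429921 (plus), had 43 reads opposite an intron from 424228 to 434678 with 57 polyA lines, in a region shared by LOC108102971 and LOC108102970. It was the only plus-strand member among the 12 there, of which 5 lay in LOC108102888.

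Among contigs with at least 10 islands, the largest shares of members were in NW_024573415.1 with 2 of 17 (11.8%, 1.46 to 36.4), NW_024572029.1 and NW_024572115.1 with 5 of 54 (9.26%, 3.08 to 20.3). On contigs with aligned bases over less than 100 kb there were 12 members, 4.96% (2.59 to 8.50), against 1.27% of other islands (1.07 to 1.5) and 1.35% of all islands. At a smaller scale, 43 members (17.8%) lay within 5000 nt of another member of their strand, in 15 pairs, 3 groups of 3 and 1 group of 4, a count with no matching value for other islands. The group of 4, named after its values were seen, spanned NW_024573039.1:657746-658577 (plus) with 532 reads, including the fourth strongest member.

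**Figure D5:**
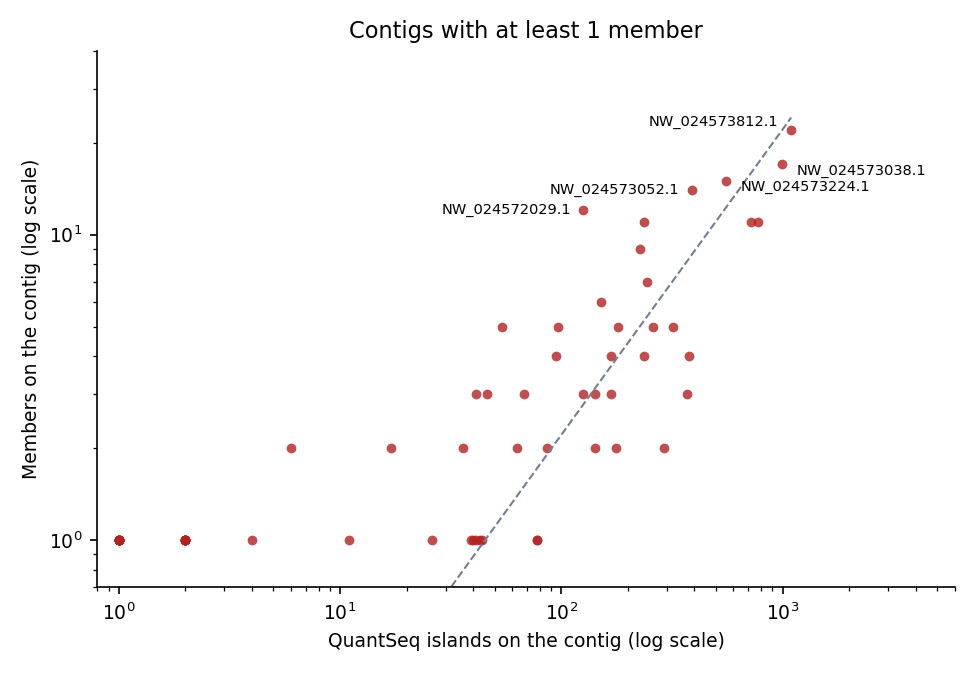
Members (vertical, log scale) against all QuantSeq islands (horizontal, log scale) on each of the 64 contigs with at least 1 member, where each point is a contig and overlapping points appear darker. The dashed line is the share of members over all islands, 2.21%, and NW_024572029.1, with 12 members of 126 islands, lies well above it.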

How the data were processed

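The authors trimmed adapters and, in QuantSeq reads, poly-A stretches, removed low-quality reads (FASTX-Toolkit) and aligned with STAR 2.7.3a to ASM1815383v1. Their notes also list SAMtools 1.10 and bedtools 2.28.0. The deposited files list genome-unique alignments, 1 line per aligned read, so repeated sequence is seen only through unique stretches. The only measurement-like column, a mapping score, was set to 255 in every line by the authors' pipeline and is no level. All counts are lines, computed in pandas 2.3.3, scipy 1.17.1 and numpy 2.4.6 under Python 3.11.15 and drawn with matplotlib 3.10.9.

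Merging by whole alignment spans, as first laid down, gave 951 islands, 307 of them over 10000 nt and the widest 5698145 nt. After this was seen, the listed alternative, reads without a gap, was used in its place. A polyA line supported an island by its aligned blocks, and members inside an intron had to lie in it wholly. The gene table gives neither contigs nor strands. Its 267 runs of rising start were matched to contigs holding at least 90% of their junctions in genes of the run, and 51 runs with 13924 of 15386 genes (90.5%) were placed. Contigs of genes are therefore inferred.

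Members named are the 10 with most reads, the leading 3 in introns of either strand, the 3 with most opposite-strand polyA lines, the widest, the narrowest and the leaders of the 5 contigs with most members. Genes named hold such a member or belong to the 5 with most members, and contigs are named by number or, above 10 islands, by share of members. Members and lists were chosen with earlier results of these data known. The counting was tested on simulated data. Alternatives covered the read minimum, the polyA limit, the window, the merging and the intron and opposite-strand limits.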

Additional observations from a re-analysis of the deposited data

How the results depend on the processing

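No paired analysis was possible because each kind of library had 1 sample. Of 118 values recomputed under 19 alternatives, 74 stayed within 1.5 times the count or within the interval of the reported value, and 44 moved. Counting distant polyA lines by their whole span left 38 members at a median of 6.07 CPM, with 0% in same-strand introns (fixed by construction, since lines spliced over an intron then count as support), 18.4% with opposite-strand lines and 10.5% with downstream lines. Merging islands by whole spans left 32 members (29 of them also among the 242) at 6.07 CPM, with 0% in introns, 12.5% with opposite-strand lines, 6.25% with downstream lines and 25.0% on the 5 leading contigs. Counting identical alignments once left 89 members with a median level of 21.8 CPM of distinct alignments, a width of 144 nt and downstream lines at 41.6%. A minimum of 10 reads gave 805 members at 2.40 CPM, 123 nt wide, 14.0% of them in introns and 21.5% with downstream lines. A minimum of 50 reads gave 60 members at 13.2 CPM, 10% of them with opposite-strand lines. Entering every QuantSeq line with its 3′ block, an alternative chosen after seeing the data, gave 411 members, 94.0 nt wide, 21.2% with downstream lines. Allowing 0 polyA lines gave downstream lines at 22.2%, and a window of 500 nt a width of 145 nt. Introns shown by 1 polyA line held 15.7% of members and introns shown by 10 lines 5.37%. Opposite-strand lines were found at 1.24% with a minimum of 20 lines and at 12.8% when 1000 nt upstream were included.

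The number of members therefore depends on the definition, between 32 and 805 over these alternatives. With 171 members at 0 lines, a QuantSeq island is called unsupported only at this polyA depth, where 2 lines are 0.153 CPM. Of the 10 strongest members, 2 were retained with support by whole span, 1 with merging by whole spans, 7 with a window of 2000 nt, 8 with 0 polyA lines allowed and 9 with identical alignments counted once, and 10 under each of the others.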
